A study of Mus musculus with 6 samples.

Results

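Slc4a1, Slc4a4, Slc4a9 and Slc26a4 code for membrane proteins that move bicarbonate or exchange it for other anions, and they were 4 of the 456 genes counted in single kidney cells. They were taken by name as the members of the Slc4 and Slc26 families described here, and their counts were summed per library and per cell class as the authors had named the classes. The cells came from 6 kidney samples of wild-type C57BL/6J mice aged 16 weeks. All mice ate a gel diet with sodium at 104 µmol per kcal, and for 1 week it carried either vehicle (3 samples, libraries 1, 3 and 5) or furosemide at 70 mg/kg body weight (3 samples, libraries 2, 4 and 6). Furosemide is a loop diuretic, an inhibitor of salt uptake through NKCC2 in the thick ascending limb. The comparison asks whether the treatment changed the message of the exchangers in the cells that hold them.

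Bicarbonate leaves the proximal tubule cell on its blood side together with sodium through NBCe1, the product of Slc4a4. In the collecting system, acid and base are handled by intercalated cells. Type A cells secrete acid and return bicarbonate to the blood through the chloride-bicarbonate exchanger AE1, the product of Slc4a1. Type B cells secrete bicarbonate into the urine through pendrin, the product of Slc26a4, and carry AE4, the product of Slc4a9, on their blood side. Pendrin also takes up chloride from the tubule fluid. Slc4a1 is in addition the band 3 gene of red blood cells.

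The 6 libraries held between 3051 and 4439 of the 22154 cells and between 4819988 and 7635509 counts, with a median of 1073 to 1539.5 counts per cell. Across libraries 196 cell numbers recurred, and a cell number names a cell only within its library. Levels below are CPM of the panel's counts in a class and library, scaled by TMM, unless they are called plain CPM. Plain CPM are unscaled and, where so stated, pooled over all libraries, without a spread between libraries. The panel is a chosen set, so levels were compared only for the same gene. The labels do not say whether each sample is another animal, so p-values measure the spread between these samples. A sum over all cells of a library cannot tell fewer cells of a class from less RNA per cell.

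Slc26a4 and Slc4a4 are the members with the most counts, and the 100 bases before their annotated starts are shown because the counts are per gene and do not tell starts apart. RefSeq (GRCm38.p6) gives Slc4a4 2 starts on the plus strand of chromosome 5, 140706 bases apart, and Slc26a4 1 start on the minus strand of chromosome 12. The bases shown lie just before these starts, at chr5:88887160-88887259 and chr5:89027866-89027965 for Slc4a4 and at chr12:31559985-31560084 for Slc26a4. Capitals mark TATAAA, the core of a TATA box, the only one of 3 searched motifs found in the 250 bases before these starts (the others were TGTTTAC, a forkhead core, and GTTAAT, a part of an HNF1 site, on both strands and with no overlap between motifs). It lay 31 bases before the Slc26a4 start, and 12.4% of 32851 promoter windows of the same length held it, against 3.17% for TGTTTAC and 6.43% for GTTAAT. The 250 bases before the upstream Slc4a4 start were 82% G and C, against 48.8% before its downstream start and 49.6% before the Slc26a4 start.
Slc26a4: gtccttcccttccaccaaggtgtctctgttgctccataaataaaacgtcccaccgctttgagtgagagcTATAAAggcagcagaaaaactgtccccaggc
Slc4a4, upstream start: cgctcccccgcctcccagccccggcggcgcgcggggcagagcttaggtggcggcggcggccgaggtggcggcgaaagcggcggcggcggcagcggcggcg
Slc4a4, downstream start: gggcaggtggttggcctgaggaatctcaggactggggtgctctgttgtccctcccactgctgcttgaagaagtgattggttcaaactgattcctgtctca

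Each exchanger was concentrated in a few classes. The 3 proximal classes held 98.4% of all Slc4a4 counts. The classes AIC, OMCD principal and BIC together held 95.5% of Slc4a1, 95.8% of Slc4a9 and 97.9% of Slc26a4 counts, out of 32791, 15897 and 60732 counts. These 3 classes held 340, 373 and 626 cells. In this field AIC and BIC stand for type A and type B intercalated cells, OMCD and CCD for the outer medullary and cortical collecting duct, CNT for the connecting tubule and DCT for the distal convoluted tubule. Since the classes were built from the counts of these cells, the order of levels across classes is a description without a test.

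**Figure D1:**
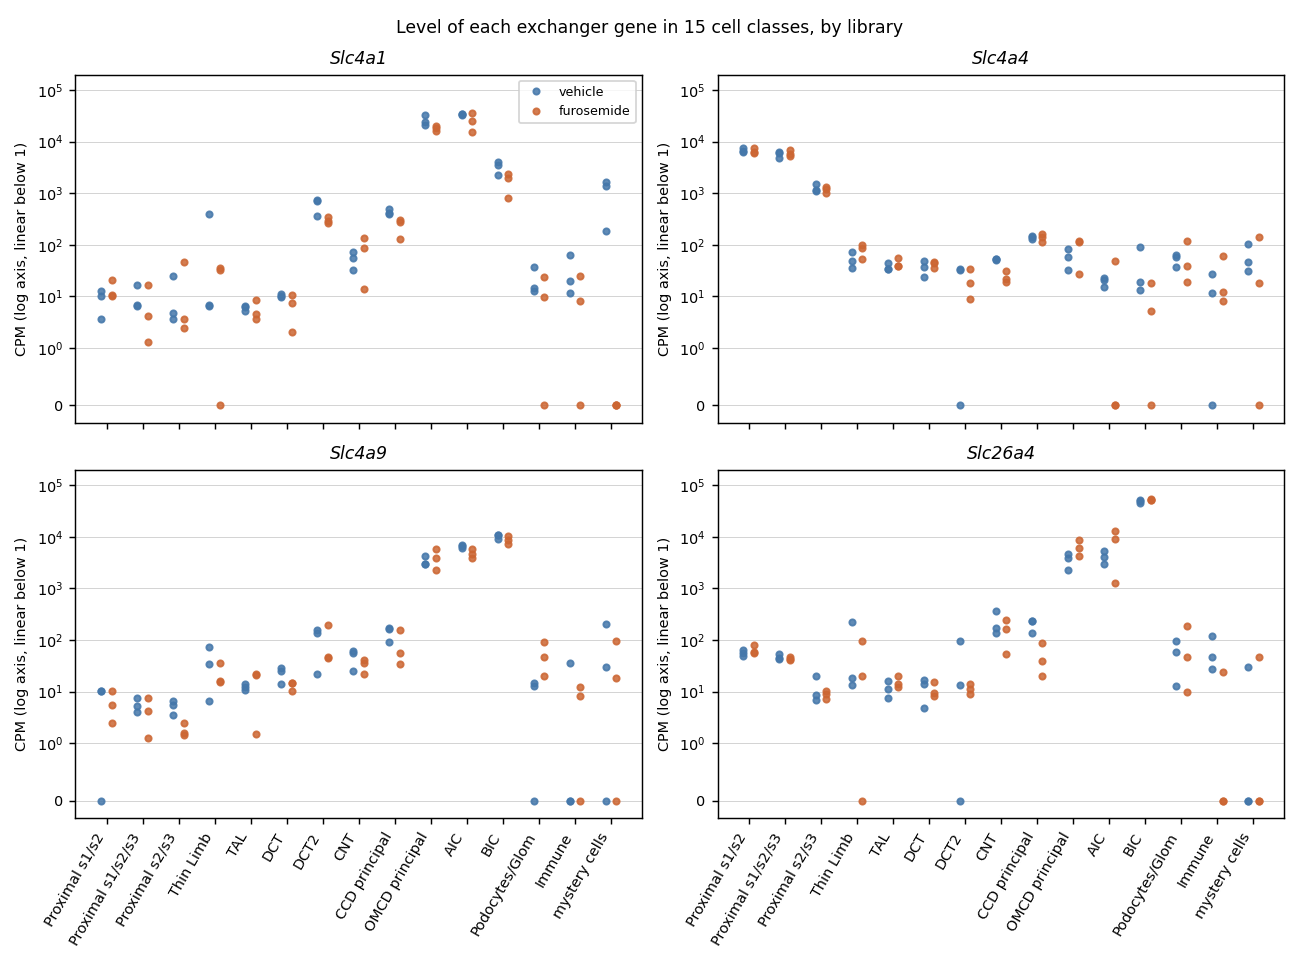
Level of each gene (vertical axis, CPM on a log axis that is linear below 1) in the 15 cell classes (horizontal axis), with 1 point per library in blue for vehicle and orange for furosemide. Slc4a4 stands highest in the 3 proximal classes, and the other 3 genes stand highest in OMCD principal, AIC and BIC.

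Slc4a4, the proximal cotransporter, averaged 6677 ± 656 CPM (SD, n = 6 libraries) in Proximal s1/s2 and 5871 ± 783 CPM in Proximal s1/s2/s3, and the libraries of both classes overlapped. In Proximal s2/s3 it averaged 1212 ± 182 CPM, below every library of the other proximal classes. The next class was CCD principal, at 139 ± 16.9 CPM. Below it the libraries of neighbouring classes overlapped down to AIC at 17.96 ± 17.9 CPM. After each cell was thinned to 500 counts, 89.1% of Proximal s1/s2 cells, 86.2% of Proximal s1/s2/s3 cells and 42.4% of Proximal s2/s3 cells had a count of it, against 91.7%, 95.5% and 73.7% before thinning. Thinning left out 1283 of the 22154 cells, 735 of vehicle and 548 of furosemide libraries. In the thick ascending limb class TAL, 2.05% of thinned cells had a count, so the 5.93% of CCD principal lay above that level.

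Within Proximal s1/s2/s3 the level differed between the authors' finer classes. In plain CPM, Slc4a4 averaged 2827 ± 291 (SD, n = 6) in the 531 cells of the finer class gr1 and 6784 ± 874 in the 2242 cells of gr2, and no library of gr1 reached the lowest of gr2, 5553. The libraries of the finer classes of Proximal s1/s2, at 6397 ± 1240.0 and 6665 ± 499.9, overlapped. A cluster of the second clustering with 318 cells, Prox sub3, stood at 3807 ± 424.

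Slc4a1, the type A exchanger, averaged 29652 ± 7891 CPM in AIC and 22012 ± 5922 CPM in OMCD principal, with overlapping libraries. BIC followed at 2494 ± 1130.2 CPM, below every library of the former classes. Slc4a9, the exchanger AE4, was highest in BIC at 9555 ± 1502 CPM, and its AIC libraries, 5695 ± 1212 CPM, all lay below. In OMCD principal it stood at 3712 ± 1218 CPM, overlapping AIC. Its next class, CCD principal, stood at 113 ± 60.1 CPM. Slc26a4, the gene of pendrin, averaged 50888 ± 3703 CPM in BIC, with every library above those of AIC, at 5979 ± 4433 CPM. OMCD principal, at 4938 ± 2127 CPM, overlapped AIC, and CNT, at 188 ± 106 CPM, lay below both.

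The other classes held each gene at a small part of its highest level. Outside the proximal tubule, Slc4a4 averaged 139 ± 16.9 in CCD principal, 71.9 ± 38.9 in OMCD principal, 65.9 ± 23.6 in Thin Limb, 57.02 ± 54.95 in mystery cells, 55.97 ± 34.2 in Podocytes/Glom, 40.8 ± 8.53 in TAL, 39.4 ± 8.85 in DCT, 38.4 ± 16.2 in CNT, 24.5 ± 33.3 in BIC, 21.3 ± 14.6 in DCT2, 20.1 ± 21.98 in Immune and 17.96 ± 17.9 in AIC (CPM, SD, n = 6). In this order each class overlapped the one before it except CCD principal. Slc4a1 averaged 538 ± 769 in mystery cells, 453 ± 212 in DCT2, 333 ± 126 in CCD principal, 80.1 ± 157 in Thin Limb, 66.3 ± 43.4 in CNT, 21.5 ± 22.6 in Immune, 16.4 ± 12.9 in Podocytes/Glom, 14.4 ± 17.9 in Proximal s2/s3, 11.4 ± 5.55 in Proximal s1/s2, 8.83 ± 6.67 in Proximal s1/s2/s3, 8.65 ± 3.46 in DCT and 5.80 ± 1.69 in TAL (CPM, SD, n = 6). In this order every class overlapped its neighbour. Slc4a9 averaged 113 ± 60.1 in CCD principal, 100.2 ± 71.4 in DCT2, 58.6 ± 80.7 in mystery cells, 40.2 ± 15.9 in CNT, 31.3 ± 34.2 in Podocytes/Glom, 30.2 ± 23.7 in Thin Limb, 17.9 ± 7.36 in DCT, 13.5 ± 7.36 in TAL, 9.51 ± 14.2 in Immune, 6.49 ± 4.55 in Proximal s1/s2, 5.01 ± 2.41 in Proximal s1/s2/s3 and 3.51 ± 2.11 in Proximal s2/s3 (CPM, SD, n = 6). In this order each class overlapped the one before it except CCD principal. Slc26a4 averaged 188 ± 106 in CNT, 125 ± 94.1 in CCD principal, 68.2 ± 66.04 in Podocytes/Glom, 62.2 ± 86.4 in Thin Limb, 60.3 ± 10.4 in Proximal s1/s2, 45.2 ± 4.15 in Proximal s1/s2/s3, 36.7 ± 45.5 in Immune, 24.2 ± 36.4 in DCT2, 13.5 ± 4.23 in TAL, 13.1 ± 20.99 in mystery cells, 11.5 ± 4.66 in DCT and 10.3 ± 4.78 in Proximal s2/s3 (CPM, SD, n = 6). In this order each class overlapped the one before it except CNT. In Thin Limb, 3 cells that the second clustering placed in a cluster named AIC sub2 held 65 of the 72 Slc4a1 counts. The same 3 cells held 32 of the 47 Slc26a4 counts. Its other 582 cells, pooled over all libraries, held Slc4a1 at 9.02 and Slc26a4 at 19.3 plain CPM.

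The share of cells with a count of each gene was taken as well. In BIC, 99.7% of thinned cells had Slc26a4, 95.9% had Slc4a9 and 15.8% had Slc4a1. For AIC these shares were 13.8%, 89.8% and 91.3%, and for OMCD principal 13.97%, 63.01% and 88.5%. Before thinning they were 99.8%, 99.5% and 17.7% in BIC, 14.7%, 98.2% and 92.9% in AIC, and 15.3%, 82.8% and 90.1% in OMCD principal. In TAL, a class of another segment, the thinned shares were 0.806%, 0.562% and 0.244%. The median counts per cell were 1588.5 in BIC, 938.5 in AIC, 1703 in OMCD principal and 1502 in TAL.

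The class labels were checked against marker lists. BIC was led by Slc26a4 and Insrr, an insulin receptor-related receptor, and all 4 measured type B markers were among its top 10 genes by fold over other cells. AIC was led by Slc4a1 and Aqp6, an intercalated cell water channel. Of the 7 listed type A markers, these 2 were in the panel. Slc4a9, listed as a type B marker, was also among the top 10 genes of AIC (14.2 fold) and of OMCD principal (9.25 fold). Some of these markers are members, and the classes were built from the same cells, so the check is not independent. The class labelled OMCD principal was also led by Aqp6 and Slc4a1, which go against the label, and 1 of its 6 measured principal cell markers, Fxyd4, was among its top 10 genes. The 6 principal markers summed to 99031 plain CPM there, against 23202 in AIC and 1963 in BIC. Connecting tubule markers (4 of 4 measured) summed to 135774 plain CPM in AIC, against 7482 in OMCD principal and 17110.4 in BIC. Slc4a1 is a red cell gene too, and none of 10 listed red cell markers was in the panel, so red cells could not be checked.

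OMCD principal differed in Slc4a1 and Slc26a4 between its clusters of the second clustering, with the cells of all libraries pooled. Its 132 cells of the second cluster AIC sub2 held Slc4a1 at 58449 plain CPM and Slc26a4 at 50.02 plain CPM. Its 241 cells of the second cluster named AIC held Slc4a1 at 13399 and Slc26a4 at 6032 plain CPM, and 99.8% of the Slc26a4 counts of the class. Slc4a9 stood at 4945 and 3353 plain CPM and was counted in 82.6% and 83.0% of cells. The median totals were 949 and 2217 counts per cell.

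Single cells of AIC and OMCD principal mostly held either Slc4a1 or Slc26a4. Of 340 AIC cells, 289 had Slc4a1 without Slc26a4, 23 had Slc26a4 without Slc4a1 and 27 had both. Of 373 OMCD principal cells the numbers were 315, 36 and 21. Cells with Slc26a4 without Slc4a1 in these classes held many counts of it, a median of 71 in AIC and 70.5 in OMCD principal. All 23 and all 36 of them also had Slc4a9 and Insrr. Among cells with Slc4a1 without Slc26a4, 97.9% in AIC and 80.6% in OMCD principal had Slc4a9, and 6.57% and 37.5% had Insrr. Cells with Slc26a4 without Slc4a1 had a median total of 3237 counts in AIC and 2587.5 in OMCD principal, against 901 and 1615. After thinning, cells were sorted anew by their thinned counts, so the sets changed. Slc4a9 was then in 74.1% of 27 AIC cells with Slc26a4 without Slc4a1, and its libraries ran from 42.9% to 100%. It was in 90.6% of 286 AIC cells with Slc4a1 without Slc26a4. In OMCD principal these shares were 94.6% of 37 and 58.9% of 309 cells. Before thinning, Aqp6 was counted in 65.2% of the AIC cells with Slc26a4 without Slc4a1, with a median of 1 count. Of the AIC cells with Slc4a1 without Slc26a4, 97.9% had Aqp6, with a median of 27 counts. In OMCD principal 8.33% of the cells with Slc26a4 without Slc4a1 had Aqp6, against 100% of the cells with Slc4a1 without Slc26a4. Of the cells with both genes, 11 of 27 in AIC and 13 of 21 in OMCD principal had a single Slc26a4 count.

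BIC differed, since 110 of its 626 cells (17.6%) had both genes, 515 had Slc26a4 without Slc4a1 and 1 had Slc4a1 without Slc26a4. In the cells with both, the median was 21 Slc4a1 and 68 Slc26a4 counts, and 85 of the 110 held at least 10 counts of Slc4a1. At least 10 counts of both genes were found in 84 BIC cells, 28, 11 and 17 in libraries 1, 3 and 5 (vehicle) and 5, 11 and 12 in libraries 2, 4 and 6 (furosemide), against 3 cells in AIC and 5 in OMCD principal. Aqp6 was counted in 96.4% of the 110 cells with both genes and in 40% of the 515 with Slc26a4 without Slc4a1. The median total was 2072 counts in cells with both genes and 1503 in the other BIC cells. The authors' file was made after doublet removal per its name, and whether pairs of cells remain among these was not tested.

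**Figure D2:**
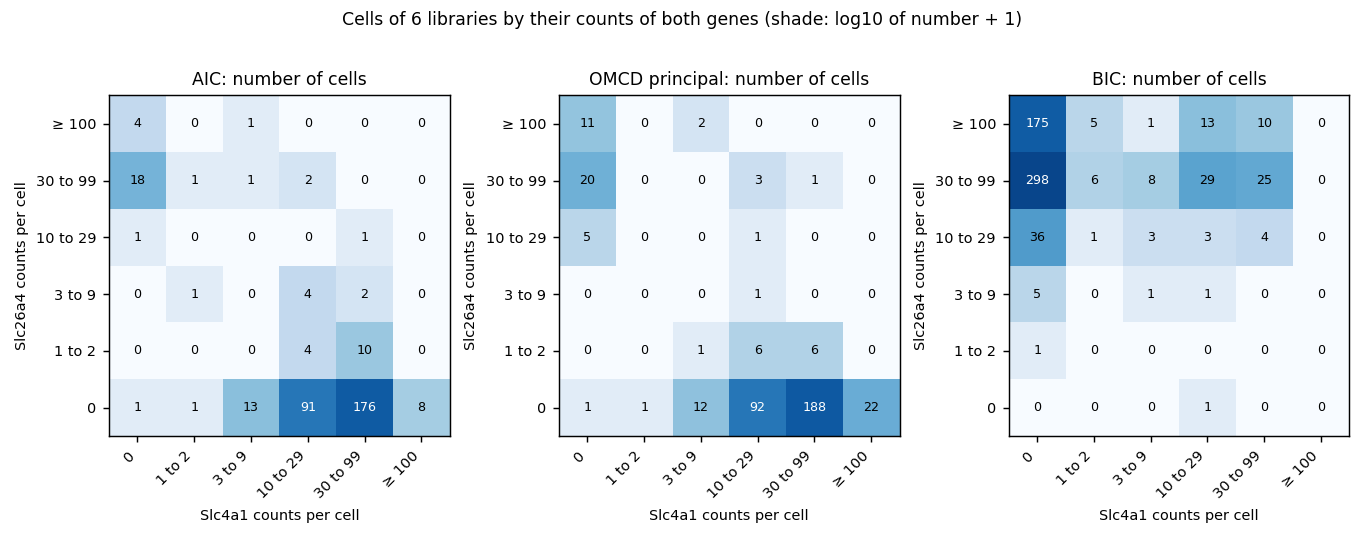
Number of cells in each class by their Slc4a1 counts (horizontal axis) and Slc26a4 counts (vertical axis), over all 6 libraries and without thinning. In AIC and OMCD principal most cells lie along 1 of the axes, while 84 BIC cells hold at least 10 counts of both genes.

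After thinning to 500 counts, cells with both genes made up 20.9%, 12.6% and 22.1% of BIC in libraries 1, 3 and 5 (vehicle) and 7.78%, 12.2% and 15.5% in libraries 2, 4 and 6 (furosemide). The groups overlapped, with means of 18.5 ± 5.16% and 11.9 ± 3.89% (two-sided exact permutation p = 0.2, n = 3 each). With 3 against 3 libraries this test cannot go below 0.1.

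**Figure D3:**
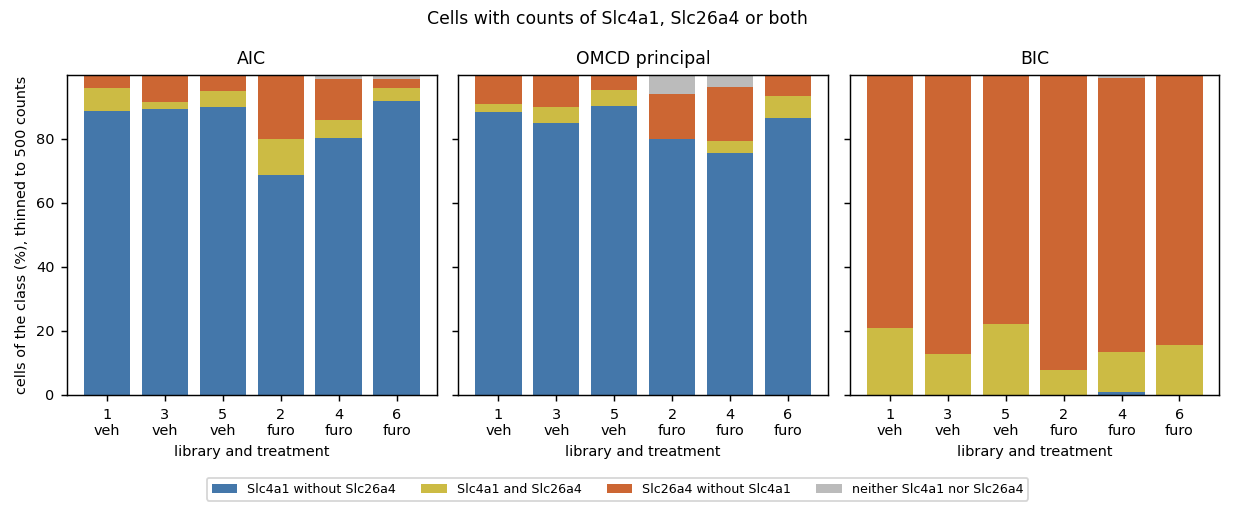
Share of the cells of each class (vertical axis, percent, cells thinned to 500 counts) with Slc4a1 alone, both genes, Slc26a4 alone or neither, in each library (horizontal axis, vehicle then furosemide). Cells with both genes are seen in every BIC library, and furosemide library 2 has the largest share of Slc26a4 without Slc4a1 in AIC.

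No exchanger gene changed with furosemide in any class at an adjusted p under 0.05 (edgeR's quasi-likelihood test, Benjamini-Hochberg over all genes tested in the class). Of 60 pairs of gene and class, 30 passed the filter on low counts and were tested, 17 lower and 13 higher with furosemide. The pairs left untested held 2 to 110 counts over the 6 libraries. The smallest adjusted p was 0.0843, for Slc4a4 in CNT. An unadjusted p under 0.05 was found for 7 of the 30, and DESeq2 gave an adjusted p under 0.05 to 1 and limma-voom to 0. The libraries of both treatments did not overlap in 7 of the 30 pairs.

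As background, the share of all tested genes called at the adjusted p was 0% in each proximal class, CCD principal, OMCD principal and AIC, 0.408% in BIC, 1.42% in DCT2, 1.88% in Thin Limb, 4.73% in TAL, 4.73% in DCT and 5.08% in CNT. An unadjusted p under 0.05 was found for 5.13% of genes in Proximal s1/s2, 7.14% in Proximal s1/s2/s3, 7.22% in Proximal s2/s3, 15% in Thin Limb, 17.7% in TAL, 14.5% in DCT, 11.4% in DCT2, 21.5% in CNT, 18.9% in CCD principal, 12.7% in OMCD principal, 5.94% in AIC and 12.7% in BIC. The libraries did not overlap, in either direction, for 11% of genes in Proximal s1/s2, 10.4% in Proximal s1/s2/s3, 10.7% in Proximal s2/s3, 20.3% in Thin Limb, 23.7% in TAL, 19.6% in DCT, 19.4% in DCT2, 27.3% in CNT, 23.1% in CCD principal, 16.4% in OMCD principal, 14.2% in AIC and 20.8% in BIC. The 7 pairs without overlap lay in classes where 14.2% to 27.3% of genes did not overlap, and the 7 pairs with an unadjusted p under 0.05 in classes where 11.4% to 21.5% of genes had one.

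**Figure D4:**
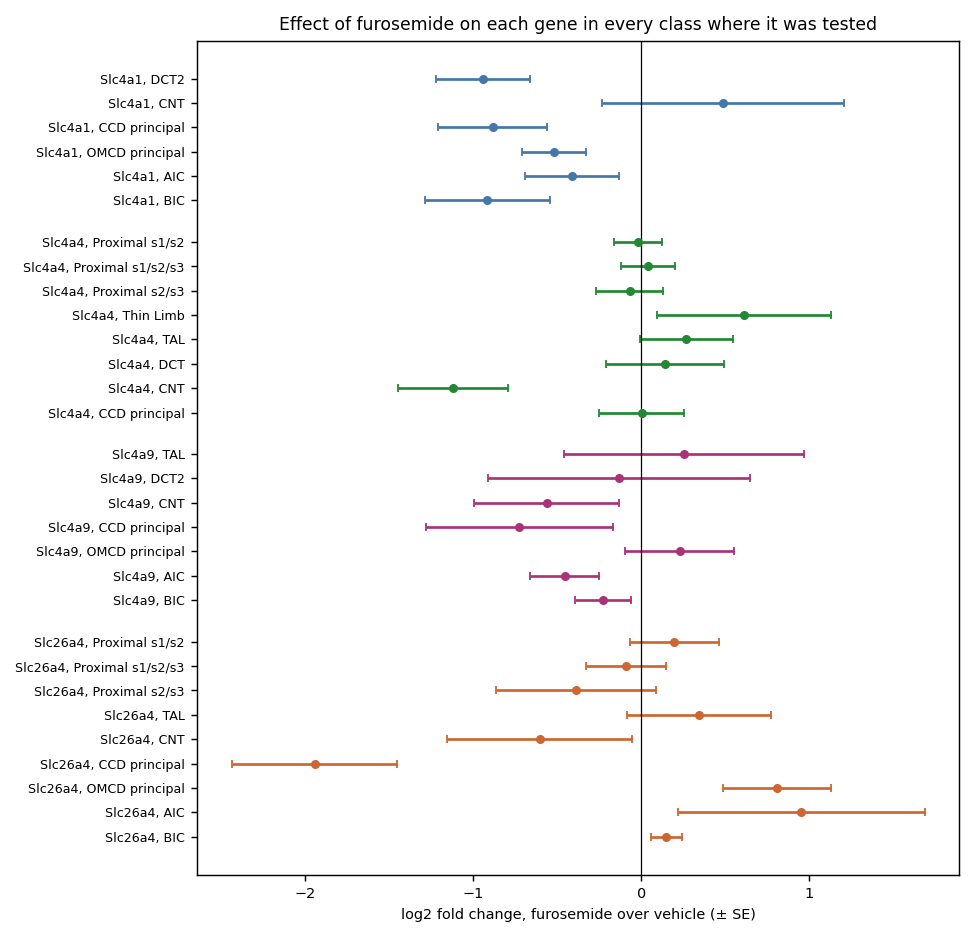
Log2 fold change of furosemide over vehicle (horizontal axis, points with SE) for the 30 pairs of gene and class that were tested. All 3 proximal values of Slc4a4 lie within 0.07 of 0, and the Slc4a1 values lie below 0 in every class but CNT.

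Slc4a4 was close to level in the proximal tubule. In Proximal s1/s2 it stood at 6187, 6464 and 7508 CPM in libraries 1, 3 and 5 (vehicle) and at 6011, 6402 and 7488 CPM in libraries 2, 4 and 6 (furosemide). The groups overlapped (6719.6 ± 697 against 6634 ± 765 CPM, mean ± SD of 3 each), with a log2 fold change of -0.018 ± 0.14 (SE, edgeR adjusted p = 0.983). In Proximal s1/s2/s3 it stood at 4862, 6073 and 6433 CPM in libraries 1, 3 and 5 (vehicle) and at 5204, 5687 and 6970.4 CPM in libraries 2, 4 and 6 (furosemide). The groups overlapped again, with a log2 fold change of 0.041 ± 0.16 (edgeR adjusted p = 0.98). In Proximal s2/s3 it stood at 1084, 1138 and 1502 CPM in libraries 1, 3 and 5 (vehicle) and at 1003, 1208 and 1336 CPM in libraries 2, 4 and 6 (furosemide), with a log2 fold change of -0.070 ± 0.20 (edgeR adjusted p = 0.939). Within each treatment, libraries 5 and 6 were the highest in all 3 classes. The effect did not pass a test of the difference between any pair of proximal classes, each by edgeR with the library as a block. Proximal s1/s2 minus Proximal s1/s2/s3 gave -0.013 ± 0.088, adjusted p = 0.989, Proximal s1/s2 minus Proximal s2/s3 0.099 ± 0.14, adjusted p = 1, and Proximal s1/s2/s3 minus Proximal s2/s3 0.13 ± 0.15, adjusted p = 0.993.

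Slc4a1 stood lower on average in furosemide libraries in both classes that held most of it, without passing the test. In AIC it stood at 34312, 33525 and 33769 CPM in libraries 1, 3 and 5 (vehicle) and at 15594, 24922 and 35793 CPM in libraries 2, 4 and 6 (furosemide). The vehicle libraries lay close together, while 2 furosemide libraries lay below and 1 above them (33869 ± 403 against 25436 ± 10109 CPM, mean ± SD of 3 each, log2 fold change -0.41 ± 0.28, edgeR adjusted p = 0.764). Without library 2 the log2 fold change was -0.16, and library 2 held the fewest AIC cells, 35. In OMCD principal the gene stood at 23525, 21234 and 32992 CPM in libraries 1, 3 and 5 (vehicle) and at 18396, 16223 and 19702 CPM in libraries 2, 4 and 6 (furosemide). All furosemide libraries lay below all vehicle libraries there (25917 ± 6233 against 18107 ± 1758 CPM, mean ± SD of 3 each), a pattern shared by 16.4% of genes in the class in either direction. The log2 fold change was -0.52 ± 0.19 (edgeR adjusted p = 0.352).

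**Figure D5:**
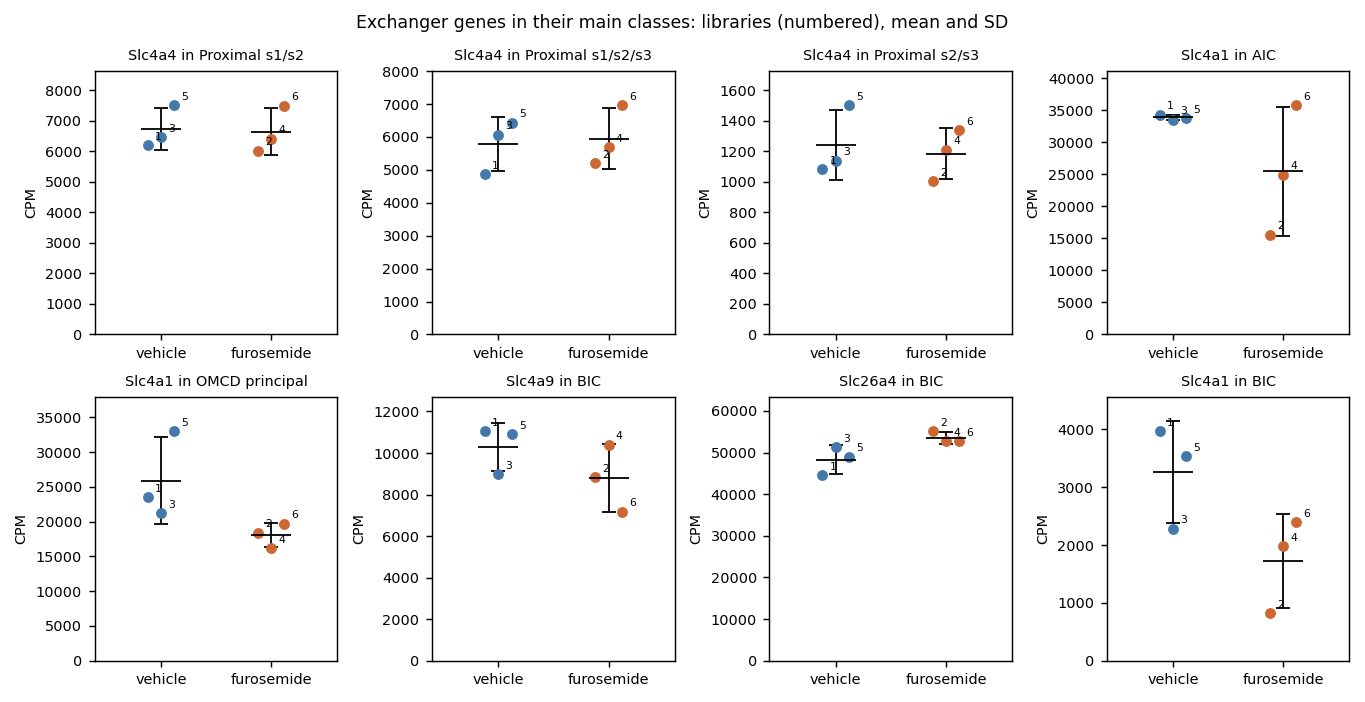
Level (vertical axis, CPM from 0) of each gene in the classes that held most of it, and of Slc4a1 in BIC, with numbered points for libraries and bars for the mean and SD of 3 libraries. Furosemide libraries lie wholly below vehicle for Slc4a1 in OMCD principal and wholly above for Slc26a4 in BIC, and the other 6 panels overlap.

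The makeup of both classes also varied between libraries. Cells of AIC sub2, which held the more Slc4a1 in OMCD principal, made up 38.5%, 35% and 50.7% of that class in libraries 1, 3 and 5 (vehicle) and 34%, 22.6% and 24.4% in libraries 2, 4 and 6 (furosemide). Every furosemide share was below every vehicle share, with library 2 close to library 3. Whether the makeup bears on the lower Slc4a1 level was not tested. The most frequent second cluster of OMCD principal was the one named AIC, with 241 of the 373 cells and less Slc4a1. Within these 241 cells alone, the log2 fold change of Slc4a1 was -0.36 (edgeR adjusted p = 0.509). In AIC, 34 cells belonged to the second cluster CNT sub1. Libraries 1, 3 and 5 (vehicle) held 3, 4 and 2 of them, or 4.17%, 8.70% and 4.88% of their AIC cells. Libraries 2, 4 and 6 (furosemide) held 7, 13 and 5 of them, or 20%, 18.3% and 6.67%. These shares overlapped between library 3 and library 6. The 34 cells held 81.8% of the Slc26a4 counts of the class and 3.03% of its Slc4a1 counts. Without them the log2 fold change of Slc4a1 was -0.19 (edgeR adjusted p = 0.97), an alternative chosen after seeing the data. Connecting tubule markers summed to 103804 to 129843 plain CPM over vehicle AIC libraries and to 116927 to 222856 over furosemide libraries, the highest in library 2.

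In BIC, where it was low, Slc4a1 stood at 3964, 2279.8 and 3537 CPM in libraries 1, 3 and 5 (vehicle) and at 817, 1975 and 2389.6 CPM in libraries 2, 4 and 6 (furosemide). Libraries overlapped between library 3 and library 6 (3260.2 ± 875 against 1727 ± 815 CPM, mean ± SD of 3 each, log2 fold change -0.92 ± 0.37, edgeR adjusted p = 0.318). The difference of effects did not pass its test, since AIC minus BIC gave 0.60 ± 0.24, adjusted p = 0.509 by edgeR, and AIC minus OMCD principal gave 0.017 ± 0.31, adjusted p = 0.998.

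Slc26a4 stood higher in furosemide libraries of BIC by a small amount that did not pass the test. It stood at 44511, 51250.1 and 49045 CPM in libraries 1, 3 and 5 (vehicle) and at 55093, 52713 and 52718 CPM in libraries 2, 4 and 6 (furosemide). All furosemide libraries lay above all vehicle libraries (48269 ± 3436 against 53508 ± 1373 CPM, mean ± SD of 3 each), and libraries failed to overlap in either direction for 20.8% of genes in BIC. The log2 fold change was 0.15 ± 0.091 (edgeR adjusted p = 0.562).

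In AIC and OMCD principal Slc26a4 averaged higher with furosemide over a wider spread. In AIC it stood at 5243, 4032 and 2911 CPM in libraries 1, 3 and 5 (vehicle) and at 13159.5, 9257 and 1268 CPM in libraries 2, 4 and 6 (furosemide), so that library 6 was the lowest of all. The log2 fold change of 0.95 ± 0.73 (edgeR adjusted p = 0.764) turned to -0.48 without the 34 CNT sub1 cells. Of the 453 Slc26a4 counts then left, 291 came from 3 cells of the second cluster BIC, all in vehicle libraries 1 and 3. Apart from left-out libraries, the alternatives of this fold change ran from -0.48 to 2.55. In OMCD principal it stood at 3831, 4666 and 2266 CPM in libraries 1, 3 and 5 (vehicle) and at 6036, 8492 and 4340.4 CPM in libraries 2, 4 and 6 (furosemide), with a log2 fold change of 0.81 ± 0.32 (edgeR adjusted p = 0.357). The difference of effects between AIC and BIC was 0.48 ± 0.89, adjusted p = 0.848 by edgeR.

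Slc4a9 stood at 11043, 8980.1 and 10896 CPM in libraries 1, 3 and 5 (vehicle) and at 8835, 10408 and 7169 CPM in libraries 2, 4 and 6 (furosemide) in BIC. The groups overlapped (10306 ± 1151 against 8804 ± 1620.1 CPM, mean ± SD of 3 each, log2 fold change -0.23 ± 0.17, edgeR adjusted p = 0.602). In AIC the gene stood at 6111, 6607 and 7056 CPM in libraries 1, 3 and 5 (vehicle) and at 3867, 5889 and 4639 CPM in libraries 2, 4 and 6 (furosemide). No furosemide library there reached the lowest vehicle library, with a log2 fold change of -0.46 ± 0.21 (edgeR adjusted p = 0.728), and 14.2% of genes in AIC did not overlap in either direction. In OMCD principal it stood at 3024, 3000.4 and 4241 CPM in libraries 1, 3 and 5 (vehicle) and at 3931, 5755 and 2319 CPM in libraries 2, 4 and 6 (furosemide). The groups overlapped there, its log2 fold change was 0.23 ± 0.32 (edgeR adjusted p = 0.802), and AIC minus OMCD principal gave -0.62 ± 0.30, adjusted p = 0.713 by edgeR.

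Summed over AIC, OMCD principal and BIC, a set added after seeing the data, a cell counts whichever of these classes it was given, while the number of cells of each class still enters. Slc4a1 then had a log2 fold change of -0.52 ± 0.20 (edgeR adjusted p = 0.285), Slc4a9 of -0.16 ± 0.19 (edgeR adjusted p = 0.743) and Slc26a4 of 0.25 ± 0.10 (edgeR adjusted p = 0.313). All 3 furosemide libraries were above vehicle for Slc26a4 in this sum (24898 ± 589.8 against 29595 ± 2935 CPM, mean ± SD of 3 each), while 20.7% of genes in the sum did not overlap in either direction. DESeq2 gave it an adjusted p of 0.0492, where it called 22 of 143 genes, against 3 of 299 by edgeR. Over all cells of a library the log2 fold changes were -0.53 ± 0.27 for Slc4a1, 0.031 ± 0.30 for Slc4a4, -0.25 ± 0.16 for Slc4a9 and 0.19 ± 0.15 for Slc26a4, with edgeR adjusted p-values of 0.399, 0.968, 0.525 and 0.612. In these sums 1% and 4.46% of all genes tested were called.

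The numbers of cells in the classes of highest exchanger level were compared as well. OMCD principal cells made up 2.05 ± 0.319% of vehicle and 1.36 ± 0.241% of furosemide cells (SD, n = 3 each), with every furosemide library lower (two-sided exact permutation p = 0.1, the smallest possible, adjusted p = 0.3 over the 15 classes). The second cluster named AIC, which held 241 of the 373, made up 1.26 ± 0.325% and 1.06 ± 0.0288%, with overlapping libraries. Class AIC made up 1.42 ± 0.326% and 1.61 ± 0.472%, and BIC 2.95 ± 0.329% and 2.74 ± 0.421%, both with overlapping libraries. TAL itself made up 23.7 ± 1.01% of vehicle and 13.3 ± 2.13% of furosemide cells, with every furosemide library lower. Shares of 1 total depend on each other. With TAL cells left out of the total, BIC made up 3.86 ± 0.439% and 3.15 ± 0.416%, and every furosemide library was lower (two-sided exact permutation p = 0.1, adjusted p = 0.28, n = 3 each). The genes compared here helped to define these classes, so shares of cells and levels within a class are not independent of each other. The name of the deposited file speaks of equal numbers of cells, without saying between what.

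Outside their main classes the genes were low. Slc4a1 in DCT2 stood at 355, 749.6 and 696 CPM in libraries 1, 3 and 5 (vehicle) and at 355, 295 and 269 CPM in libraries 2, 4 and 6 (furosemide). Vehicle library 1 lay above the highest furosemide library by less than 1 CPM (log2 fold change -0.94 ± 0.28, edgeR adjusted p = 0.151), and without that library the edgeR adjusted p was 0.0418. Of the Slc4a1 counts in DCT2, 96.1% came from 22 of its 485 cells, which the second clustering placed in AIC sub2. Pooled over all libraries, those 22 cells held it at 6321 plain CPM and the other 463 cells at 16.2. Across libraries, these cells made up 2.67%, 4.44% and 10% of DCT2 in libraries 1, 3 and 5 (vehicle) and 3.81%, 5.56% and 3.57% in libraries 2, 4 and 6 (furosemide).

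In CCD principal, Slc26a4 stood at 135, 232 and 238 CPM in libraries 1, 3 and 5 (vehicle) and at 38.8, 85.9 and 20.5 CPM in libraries 2, 4 and 6 (furosemide). Every furosemide library was lower, with a log2 fold change of -1.94 ± 0.49 (edgeR adjusted p = 0.101), on 4 to 78 counts per library. DESeq2, which called 18 of 281 genes in this class against 0 by edgeR, gave an adjusted p of 0.0123 for it. The 225 counts came from 39 cells with Slc26a4 without Slc4a1 and 11 cells with both genes, of 1225 in the class. The 39 cells made up 2.73%, 2.11% and 5.34% of the class in libraries 1, 3 and 5 (vehicle). They made up 3.89%, 3.26% and 2.21% in libraries 2, 4 and 6 (furosemide). The 11 cells with both made up 0.455%, 2.63% and 1.53% against 0.556%, 0.272% and 0.735%. Both shares overlapped between treatments. Slc4a1 in the same class averaged 430.1 ± 51.1 against 236 ± 93.5 CPM, mean ± SD of 3 each, also with every furosemide library lower (log2 fold change -0.88 ± 0.32, edgeR adjusted p = 0.218), and 23.1% of genes in CCD principal did not overlap in either direction. Slc4a4 in CNT averaged 52.8 ± 1.49 against 24.00 ± 6.09 CPM, mean ± SD of 3 each on 6 to 17 counts per library. Every furosemide library was lower there (log2 fold change -1.12 ± 0.33, edgeR adjusted p = 0.0843), and 27.3% of genes in CNT did not overlap in either direction.

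Other genes followed the exchangers across the 15 classes (Pearson correlation of log2(CPM + 10) over class means, among 419 genes, as a description, since class means share libraries and depth). Aqp6 was most like Slc4a1 (r = 0.997), followed by Atp6v1g3, a subunit of the vacuolar proton pump (0.944), the guanylin gene Guca2a (0.938), Slc4a9 (0.929) and the pump subunit Atp6v1c2 (0.915). Insrr was most like Slc26a4 (0.98), followed by Cyp1a1 (0.957), Trpc5 (0.937), Slc4a9 (0.934) and Atp6ap2 (0.925). Slc4a9 had Cyp1a1 (0.969), Atp6v1g3 (0.963), Insrr (0.963), Atp6v1c2 (0.958) and Guca2a (0.95) nearest to it. Slc4a4 was followed by the organic anion transporter Slc22a8 (0.961), Ugt3a2 (0.961), Bhmt (0.96), the amino acid transporter Slc6a19 (0.96) and Cftr (0.959), none of which was among its nearest 5 by Spearman's rank correlation. By that measure, 4 of the 5 named genes stayed among the nearest 5 for Slc4a1, 3 for Slc4a9 and 1 for Slc26a4. In their highest class Bhmt, Cftr and Trpc5 reached 39.5, 70.5 and 101.5 CPM. Among the members, Slc4a9 correlated with Slc4a1 and with Slc26a4 more closely (0.929 and 0.934) than those did with each other (0.79).

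Partner genes of acid and base handling were taken from lists of other bicarbonate and proton exchangers, carbonic anhydrases, proton pumps, ammonia genes and intercalated cell genes. Of 65 listed genes 20 were in the panel, with no carbonic anhydrase among them. None passed the test in a proximal class, AIC, OMCD principal or BIC. In AIC 15 were tested, with a median log2 fold change of -0.045 against -0.031 for all genes tested, in OMCD principal 17 with 0.11 against 0.013, and in BIC 16 with 0.085 against 0.012. Between 9 and 13 were tested in the proximal classes, among them Slc26a11, Atp6ap2 and Pck1, a gene of gluconeogenesis.

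Summed over AIC, OMCD principal and BIC, 1 of 18 tested list genes rose and none fell, where 1% of all genes tested (3 of 299) were called. It was Atp4a, the catalytic subunit gene of the gastric-type proton-potassium pump, at 1799, 1919 and 1713 CPM in libraries 1, 3 and 5 (vehicle) and 3374, 2794 and 3671 CPM in libraries 2, 4 and 6 (furosemide). All furosemide libraries were higher (log2 fold change 0.86 ± 0.13, adjusted p = 0.0365, edgeR), while 20.7% of genes in the sum did not overlap in either direction. With each library left out in turn the log2 fold change ran from 0.81 to 0.97 and its edgeR adjusted p from 0.0247 to 0.182, above 0.05 in 5 of the 6 cases and below it without library 4. Scaling by cells gave an adjusted p of 0.084, and DESeq2 gave an adjusted p of 1.74e-07. In single classes it did not pass, with 0.94 ± 0.20, adjusted p = 0.0647 in BIC, 1.02 ± 0.24, adjusted p = 0.204 in OMCD principal and 0.43 ± 0.30, adjusted p = 0.764 in AIC by edgeR. Of the other list genes in BIC, Atp6v1g3 had 0.37 ± 0.10, adjusted p = 0.126, the ammonia transporter gene Rhbg 0.36 ± 0.10, adjusted p = 0.131 and Pck1 -1.26 ± 0.27, adjusted p = 0.0647 by edgeR. Pck1 was low in BIC, at 280 ± 58.8 CPM in vehicle and 116 ± 17.9 CPM in furosemide libraries (mean ± SD of 3 each). In Proximal s1/s2 its means were 49751 and 44508.5 CPM. The ammonia transporter gene Rhcg had 0.051 ± 0.12, adjusted p = 0.893 in BIC by edgeR.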

How the data were processed

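The authors deposited whole-number counts per cell for 456 genes and a table that gives each cell's library, treatment, class (15), finer class (19) and second cluster (22), per the file headers. Libraries came from BD Rhapsody capture of dissociated kidney cells with whole-transcriptome and targeted assays, per the labels' protocols. Bowtie2 2.2.9 is listed in the submitters' processing notes. The build, the counting tool, the assay behind the table, and if molecules or reads were counted, are not given in the sources used here. Per the deposited file's name, doublets and a mixed cluster were removed.

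Counts were summed per library and class, with 3 vehicle against 3 furosemide libraries, and fitted class by class with edgeR 4.0.16 (TMM, filterByExpr, robust quasi-likelihood test, R 4.3.3). The call was a Benjamini-Hochberg adjusted p under 0.05 among all tested genes of that class. SE is the size of the log2 fold change over the root of the F statistic. Effects in 2 classes were compared by an interaction term, blocking on library. Shares were compared by exact permutation over 20 assignments. Alternatives used DESeq2 1.42.0, limma 3.58.1 voom, other scaling, thinned or equal cells, other clusters and left-out libraries. The script was tested on simulated data. Members, lists and tests were chosen with earlier results of these data known. The named genes are the members, the 5 genes most like each across classes (at least 100 counts), called list genes and list genes of high level. A gene that this rule names is not reported here.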

Additional observations from a re-analysis of the deposited data

How the results depend on the processing

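None of the 121 alternative values of the 7 fold changes in the main classes, and none of the 77 of 11 differences between classes (Slc4a4 in 3 proximal pairs, the other genes between AIC and BIC and between AIC and OMCD principal, and Slc4a9 and Slc26a4 between BIC and CNT), reached an adjusted p under 0.05. Slc4a1 in AIC and OMCD principal and Slc4a9 in BIC stayed below 0, and Slc26a4 in BIC above 0, in all of their alternatives. Slc4a1 in BIC, which is not among the 7, also stayed below 0 in its alternatives. The other differences between classes fitted were not called either, except Slc4a1 in BIC minus CNT, which was -1.41 (adjusted p = 0.61, edgeR) and, without library 4, -2.19 (adjusted p = 0.027). Slc4a4 crossed 0. In Proximal s1/s2 its log2 fold change was 0.00493 in the most frequent second cluster and -0.085 to 0.059 with each library left out in turn. In Proximal s1/s2/s3 it was -0.065 scaled per cell and -0.095 to 0.14 with libraries left out, and in Proximal s2/s3 0.00476 in thinned cells and -0.24 to 0.045 with libraries left out. Over all cells Slc4a4 was -0.079 by library size, -0.060 per cell, -0.00959 by limma-voom, -0.011 with equal cells and -0.36 to 0.24 with libraries left out. The cause was not tested for any of these. Slc4a9 in OMCD principal was -0.16 in the summed classes and -0.14 to 0.50 with libraries left out, and in the summed classes -0.33 to 0.032. Slc26a4 in AIC was -0.48 without CNT sub1 cells, the lowest of its alternatives other than left-out libraries, which ran up to 2.55.

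Adjusted p-values under 0.05 appeared in 6 of 380 alternative values, none of them of a gene in a single main class: Slc26a4 in CCD principal by DESeq2 (-2.03, 0.0123) and with equal cells (-3.28, 0.0137), Slc4a4 in CNT in its most frequent second cluster (-1.23, 0.047), Slc4a1 in DCT2 without library 1 (-1.22, 0.0418) and in thinned cells (-1.70, 0.00671), and Slc26a4 in the sum of AIC, OMCD principal and BIC by DESeq2 (0.28, 0.0492).

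With libraries left out, differences of effect ran from -0.079 to 0.051 (Slc4a4, Proximal s1/s2 minus s1/s2/s3), -0.0056 to 0.18 (s1/s2 minus s2/s3), -0.26 to 1.40 (Slc26a4, AIC minus BIC), -0.25 to 0.39 and -0.91 to 0.39 (Slc4a1 and Slc26a4, AIC minus OMCD principal) and -0.047 to 0.72 (Slc4a9, BIC minus CNT). The log2 ratio of the AIC share was 0.18, -0.0033 without TAL cells in the total, -0.24 for the second clusters AIC and AIC sub2 together, which hold all 373 OMCD principal cells too, -0.24 for AIC sub2 alone (303 of the 340 AIC cells) and -0.050 to 0.38 with libraries left out, and that of BIC was -0.10, -0.29 without TAL cells and -0.17 to 0.018 with libraries left out. That of OMCD principal was -0.59, -0.78 without TAL cells and -0.24, with overlapping libraries, for the second cluster AIC (241 of its 373 cells), chosen after seeing the data. The difference in the share of cells with Slc4a4 (percentage points) was 2.29 in unthinned Proximal s1/s2 and 0.715 in unthinned Proximal s2/s3 cells. With libraries left out it was -1.95 to 0.639 and -2.72 to 4.01, for Slc4a9 in BIC -5.42 to 0.823 and for Slc26a4 in BIC -1.02 to 0.

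Counts of called genes also moved. edgeR called none in the proximal classes, AIC and OMCD principal, where 14, 20, 21, 13 and 31 genes had an unadjusted p under 0.05, and DESeq2 called 1, 2, 3, 1 and 6. In BIC it called 12 against 1, in CNT 24 against 13, in CCD principal 18 against 0, in the sum of AIC, OMCD principal and BIC 22 against 3, and over all cells 45 against 19. Leaving out library 1 or 6 gave 2 in OMCD principal, leaving out library 4 gave 6 and library 5 gave 2 in BIC, and over all cells 0 to 13 were called with a library left out (0 without library 1, 3 or 4, 2 without library 2 and 5 without library 5). No paired analysis was possible because no label ties a title's replicate number to a library. Depth limits the low classes: Slc26a4 in CCD principal rests on 225 counts and Slc4a4 in CNT on 77.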

Other observations

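The second cluster CNT sub1 held 40 cells, 34 of them in class AIC, and made up 0.0828 ± 0.0341% of vehicle and 0.274 ± 0.0584% of furosemide cells (SD, n = 3 each), with every furosemide library higher (two-sided exact permutation p = 0.1, the smallest possible, chosen after its values were seen). Its 34 AIC cells, pooled over all libraries, held Slc26a4 at 17371, Slc4a1 at 3299.8 and Slc4a9 at 2924 plain CPM. Their median total was 3088 counts, against 888 in the 303 AIC cells of AIC sub2. Of the 34, 100% had Slc4a9 and 73.5% had Slc26a4. The smaller finer class of CNT, gr2 with 105 cells, held Slc26a4 at 1340.1 ± 1755 plain CPM (SD, n = 6) against 88.8 ± 36.5 in gr1 with 1011 cells, and its libraries ran from 25.2 to 4772. In the finer proximal class gr1 of Proximal s1/s2/s3, Slc4a4 stood at 2925, 2879 and 3326 plain CPM in vehicle and 2543, 2553 and 2739 in furosemide libraries. Neither this difference nor its size against the whole class was tested.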
